A study of Mus musculus with 170 samples.

Results

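Lung gene expression was compared between 6 mice given particles from flaming pine needles and 6 mice given saline, 24 h after exposure. The 12 libraries were chosen by their labels for tissue, treatment and time, out of 170 libraries in the series, of which 140 were lung. A library was kept where at least 13000 gene symbols had 1 or more counts, so the number of detected symbols is a value that chose the libraries and is given as a description. All 12 libraries passed. Across the series 6 libraries did not pass, all of lung at 24 h, of which 4 belonged to the other flaming smokes. The highest of those left out had 12545 symbols and the lowest lung library kept had 13135.

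The mice were females of CD-1, an outbred stock, and each library is a separate animal by the number in its title. Smoke animals received condensate of burned fuel as 50 µL of saline with 2 mg/mL particulate matter, drawn into the lungs from the back of the throat (oropharyngeal aspiration). Control animals are labelled as saline, and neither their volume nor any age is given in the labels. The comparison groups were lungs of the same design from 4 h, from the flaming smokes of pine, red oak, peat and eucalyptus, from the smoldering smokes, and from lipopolysaccharide (LPS), a bacterial endotoxin. Values are read counts per gene from a probe-based sequencing assay, given as CPM (counts scaled to a common library total), and differences are on the log2 scale with standard errors.

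Adrenomedullin, encoded by Adm, is a secreted peptide that widens vessels and tightens the endothelial barrier. It signals through the receptor Calcrl, which needs a partner, Ramp2 or Ramp3, to bind it, and Ackr3 takes the peptide up without the same signalling. In the lung it is made by endothelium, epithelium and macrophages, and its transcription is known to respond to low oxygen and to endotoxin. Smoke particles carry polycyclic hydrocarbons, which act on the aryl hydrocarbon receptor and its detoxification genes, and oxidants, which act on the Nrf2 antioxidant genes. Particles in the airways also draw neutrophils and bring about acute phase genes such as serum amyloid A and lipocalin 2.

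The saline libraries were less alike than the smoke libraries. Pine needles flame libraries had 15124 to 15341 detected symbols, whereas saline replicates 1 to 6 had 15400, 13196, 15297, 14657, 14703 and 15136. Saline replicate 2 stood apart, with its 50 most abundant genes taking 20.2% of counts against 10.7% to 12.7% in the smoke libraries and 11.3% to 15.6% in the other saline libraries. Total counts were 5.92 M to 6.22 M for smoke and 5.63 M to 6.67 M for saline. Saline replicate 2 had the lowest of them, 5.63 M, whereas saline replicates 4 and 5, which also had few symbols, had 6.13 M and 6.67 M. Each group had 1 library on plate 1 (replicate 1) and 5 on plate 2. Alveolar type 2 markers were abundant in both groups, as the label lung requires, and summed to 10839 to 16833 CPM after smoke and 8187 to 17120 CPM after saline.

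In the fit of all kept lung libraries, 1351 of 14385 genes were called between pine needles flame and saline at an adjusted p under 0.05, which is 9.39% of genes tested. Of these, 201 (1.4%) were higher and 1150 (7.99%) lower after smoke. DESeq2 gave 464 higher and 1381 lower. These counts depended on which libraries entered the fit. Without saline replicate 2, 9 genes were called (0.0626%), and with the number of detected symbols as a covariate 7 were called (0.0487%). With all 140 lung libraries kept 1 was called, Adm (0.00692%). Without the 3 saline libraries of fewer than 15000 symbols (replicates 2, 4 and 5) edgeR called 0 genes, with 474 at an unadjusted p under 0.05. Leaving out smoke replicates 1, 2, 3 or 4 also left 16, 13, 10 and 5 genes, and leaving out saline replicate 4 left 12. In the other direction, 3826 genes were called without saline replicate 6 and 2797 without saline replicate 1. The results are therefore ordered by how many of the 24 fits (the reported one and 23 alternatives) called a gene. Adm, Dap and Plscr4 were called in 21 fits and Ift20 and Ktn1 in 20, and no other gene was called in 20 or more. The fits share most of their animals, so these numbers are not independent support. The limit of 20 fits was set with the values known. A fit of only the 2 groups called 0 genes. The plot of detected symbols and of calls by fit shows the libraries and counts behind this order.

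**Figure D1:**
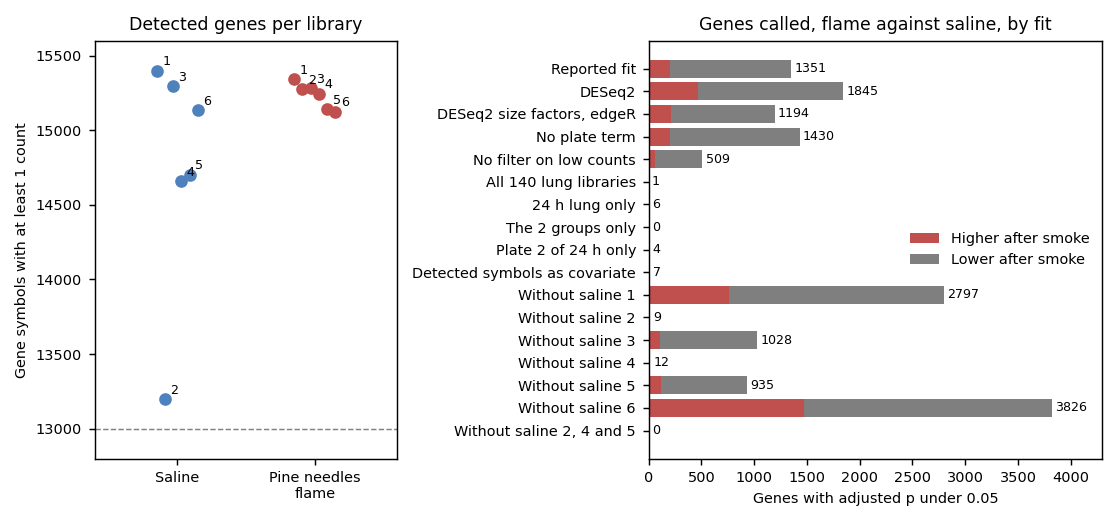
Left, gene symbols with at least 1 count in each library (points, numbered by replicate), with the limit of 13000 symbols as a dashed line; right, genes with an adjusted p under 0.05 in each fit of pine needles flame against saline, as stacked bars of genes higher and lower after smoke. Saline replicates 2, 4 and 5 lie below every smoke library, and the number of calls runs from 0 to 3826 across these fits.

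Adm fell after pine needles flame smoke. The saline animals had 125.5, 136.7, 165, 185, 127.6 and 94.5 CPM, and the smoke animals 41.7, 68.9, 49, 19, 48.5 and 24.8 CPM. All 6 smoke values lay below all 6 saline values, a pattern that 0.473% of genes tested showed. The means were 42 ± 18.1 CPM (SD, n = 6) after smoke and 139.1 ± 32 CPM (SD, n = 6) after saline, a log2 change of -1.73 ± 0.34 (adjusted p = 0.00563, edgeR quasi-likelihood test). In bulk lung, fewer cells that make a transcript and less of the transcript per cell cannot be told apart. The 3 probe rows of Adm, tested one by one, had log2 changes of -1.71, -1.20 and -1.93, and each was called. The change was -1.73 without saline replicate 2 and -1.55 with the number of detected symbols as a covariate (adjusted p = 0.0186 and 0.0188). It missed the threshold in 3 fits of similar size of change: without smoke replicate 4 (-1.58, adjusted p = 0.0567), in a fit of only the 2 groups (-1.74, adjusted p = 0.0963), and without saline replicates 2, 4 and 5 (-1.60, adjusted p = 0.62). The p-values of the reported fit use a spread estimated over all lung groups, not only over the animals of these 2 groups.

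The genes of the adrenomedullin receptors did not share one direction. Of 11 tested members of the adrenomedullin list, 0 rose and 2 fell, Adm and Ramp2, beside 7.99% of all genes that were lower. The list median was -0.09 against 0.016 over all genes tested, and it turned to 0.01 without saline replicate 2 and 0.06 with the covariate. Ramp2, the receptor partner in endothelium, had 797, 5413, 1512, 2084, 1680 and 669 CPM after saline and 603 to 1055 CPM after smoke. Its log2 change was -1.41 ± 0.41 (adjusted p = 0.0332). Without saline replicate 2 it was -0.83 and was not called (adjusted p = 0.338). Calcrl, the receptor itself, was at 57.8 ± 27.3 CPM (SD, n = 6) after smoke and 25.8 ± 18.8 CPM (SD, n = 6) after saline, and was not called (1.19 ± 0.53, adjusted p = 0.114). Ramp3 (-0.16) and the uptake receptor Ackr3 (-0.29) were not called either.

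Across the other lung groups of 24 h, Adm had its lowest mean after pine needles flame. It was followed by red oak flame with a mean of 55.3 CPM, pine flame with 60.4 CPM and eucalyptus flame with 67.2 CPM, and the neighbouring means in this order lay within 1 SD of each other. Red oak smolder had 91.7 CPM, peat smolder 99.4 CPM, eucalyptus smolder 107.9 CPM and peat flame 115.3 CPM. Pine needles smolder, at 133.7 CPM, saline, at 139.1 CPM, and pine smolder, at 142 CPM, were close together. LPS had the highest mean, 266 CPM. Against the mean of the other 4 flaming smokes Adm differed by -0.74 ± 0.29 and was not called (adjusted p = 0.189), and against pine flame by -0.51 ± 0.35 (adjusted p = 1). At 4 h, in separate animals, Adm was at 64.1 ± 30.3 CPM (SD, n = 6) after pine needles flame and 55.7 ± 22.1 CPM (SD, n = 6) after saline, which was not called (0.20, adjusted p = 0.727). The effect at 24 h minus that at 4 h was -1.93 ± 0.48 (adjusted p = 0.00916). Saline lungs of 24 h thus had a higher mean than those of 4 h. The 4 h saline lungs were all on plate 1 and all but 1 of the 24 h saline lungs on plate 2. That 1 lung, saline replicate 1, had 125.5 CPM against 25.1 to 88.5 CPM in the 4 h saline lungs of the same plate. In pine needles smolder the plates were reversed, with the 24 h lungs on plate 1 and all but 1 of the 4 h lungs on plate 2. Adm was there at 92.5 to 223 CPM at 24 h and at 39.1 to 77.8 CPM at 4 h. In saline, time and plate mostly went together, and the part of plate in these values was not tested. Over the 24 lung group means, the genes most like Adm in rank were Cdkn1a (Spearman 0.88), Trim6 (0.84), Itga6 (0.83), Elp5 (0.82) and Klhl25 (0.82), out of 11706 genes compared. Those group means share the plates and the detected-symbol differences described above.

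**Figure D2:**
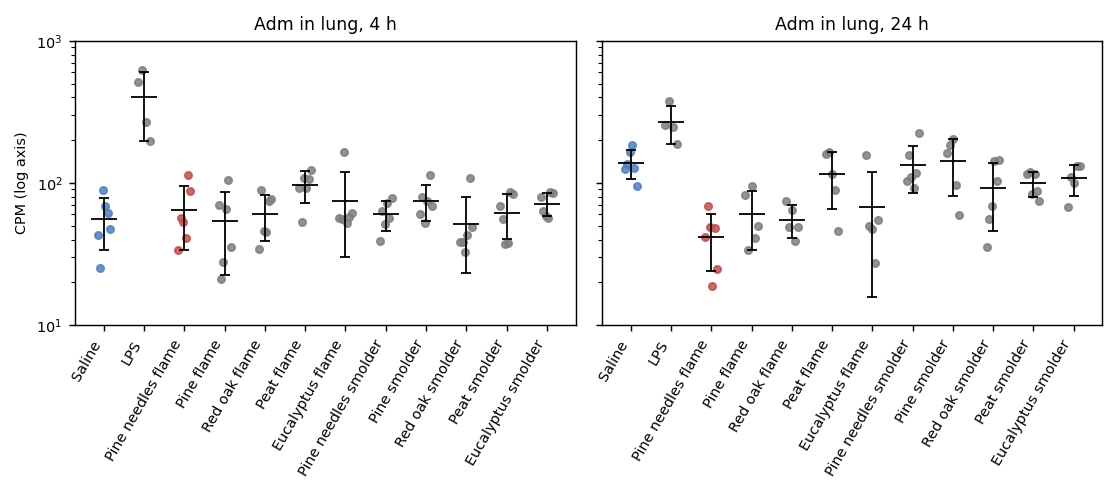
Adm in each lung library at 4 h (left) and 24 h (right), in CPM on a log axis, with the mean and SD of each group in black, saline in blue and pine needles flame in red. At 24 h all 6 pine needles flame values lie below the lowest saline value of 94.5 CPM, and at 4 h the same groups overlap.

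The upstream 250 bases of the RefSeq start sites (GRCm38.p6, all on the plus strand) are shown for Adm, the gene that fell, and for Dap and Ktn1, which rose. Capitals mark ACGTG and GCGTG on either strand. Both are forms of the core bound by hypoxia-inducible factors, and GCGTG is also the core bound by the aryl hydrocarbon receptor. The Adm window is chr7:110627407-110627656, that of Dap chr15:31224135-31224384, and that of Ktn1 (the first of its start sites) chr14:47649061-47649310.
Adm: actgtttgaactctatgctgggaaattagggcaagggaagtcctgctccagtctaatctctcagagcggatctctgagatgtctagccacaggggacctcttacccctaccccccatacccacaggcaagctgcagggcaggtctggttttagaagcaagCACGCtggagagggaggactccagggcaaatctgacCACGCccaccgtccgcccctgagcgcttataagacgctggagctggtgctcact
Dap: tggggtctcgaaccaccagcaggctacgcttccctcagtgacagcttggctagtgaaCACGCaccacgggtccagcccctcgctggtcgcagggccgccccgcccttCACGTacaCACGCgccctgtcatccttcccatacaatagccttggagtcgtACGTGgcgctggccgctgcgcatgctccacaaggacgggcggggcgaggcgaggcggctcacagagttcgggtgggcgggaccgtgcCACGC
Ktn1: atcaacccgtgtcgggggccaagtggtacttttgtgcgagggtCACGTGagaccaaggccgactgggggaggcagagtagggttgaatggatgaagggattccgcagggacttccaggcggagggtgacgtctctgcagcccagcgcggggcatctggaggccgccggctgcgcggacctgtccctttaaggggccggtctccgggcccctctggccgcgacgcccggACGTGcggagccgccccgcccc
The Adm window held 0 matches of ACGTG and 2 of GCGTG, and Dap held 2 and 3. Ktn1 held 3 matches of ACGTG, counting the palindrome CACGTG on both strands, and 0 of GCGTG. The windows of Ift20 and Plscr4 and the other start of Ktn1 held neither. Over all 32851 promoter windows of the same length, 16.6% held ACGTG, 6.02% held CACGTG and 28.2% held GCGTG. The core bound by Nrf2, TGACNNNGC, was in the windows of Adm and Dap once each and in 10.2% of all windows. A match describes letters in this window and not a bound site.

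Ift20, Ktn1, Dap and Plscr4 rose after pine needles flame smoke, and they were chosen for description after their values were seen. In each of them all 6 smoke animals lay above all 6 saline animals, as was the case for 0.73% of all genes tested. Ift20 encodes a part of the transport complex that builds cilia and also works at the Golgi. It was at 63.7, 27.5, 43.7, 46.1, 54.9 and 75.8 CPM in the saline animals and at 190, 156, 178, 159, 127.5 and 112.998 CPM in the smoke animals. The lowest smoke animal was thus above the highest saline animal, with a log2 change of 1.56 ± 0.26 (adjusted p = 0.000414). Without saline replicate 2 the change was 1.44 (adjusted p = 0.0115), and with the covariate it was 1.26 (adjusted p = 4.65e-05). Without the saline libraries of fewer than 15000 symbols it was 1.35 and was not called (adjusted p = 0.62). Ift20 was also not called on plate 2 alone (1.57, adjusted p = 0.0912) or in the 2 groups alone (1.56, adjusted p = 0.0963). The same held with every lung library kept (1.57, adjusted p = 0.154).

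Ktn1 encodes kinectin, a membrane protein of the endoplasmic reticulum that binds the motor kinesin. Its values were 119.3, 119.7, 123.9, 134.2, 155 and 154 CPM after saline and 214, 243, 207, 250, 221 and 211 CPM after smoke. The spread within each group was small beside the gap, with means of 134.4 ± 16.6 and 224 ± 17.8 CPM (SD, n = 6 each) and a log2 change of 0.74 ± 0.14 (adjusted p = 0.00234). The change was 0.71 without saline replicate 2, 0.68 with the covariate and 0.74 without saline replicates 2, 4 and 5, and the last of these was not called (adjusted p = 0.575).

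Dap, which encodes death-associated protein, a negative regulator of autophagy, was at 127.4, 36.3, 79.4, 79.4, 58.9 and 107.03 CPM after saline. After smoke it was at 142, 149, 188, 177, 191 and 165 CPM. The groups did not overlap, although saline replicates 1 and 6 came closer to the smoke animals than the others, and the log2 change was 1.08 ± 0.21 (adjusted p = 0.00369). Plscr4, a phospholipid scramblase family member that lies in the plasma membrane, was at 10.3 to 20.1 CPM after saline and at 39.1, 24.1, 57.2, 47.7, 38.3 and 45.8 CPM after smoke. Its log2 change was 1.47 ± 0.28 (adjusted p = 0.00369), and smoke replicate 2 was the one nearest to saline. Saline replicate 2 was the lowest saline library for Ift20, Dap and Plscr4, at 27.5, 36.3 and 10.3 CPM. Without saline replicates 2, 4 and 5 neither was called, at 0.73 for Dap and 1.33 for Plscr4 (adjusted p = 0.993 for both).

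Nfil3, a transcription factor of the clock and of immune cell development, fell, with 30.1, 55.1, 29.9, 77.2, 80.9 and 52.9 CPM after saline and 14.7 to 28.4 CPM after smoke. Its 6 smoke values lay below all saline values, but saline replicates 1 and 3 were close to them. The log2 change was -1.11 ± 0.24 (adjusted p = 0.0132), it was called in 17 of 24 fits, and it was not called with the covariate (-0.99, adjusted p = 0.0554) or without saline replicates 2, 4 and 5 (-0.60, adjusted p = 0.993).

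**Figure D3:**
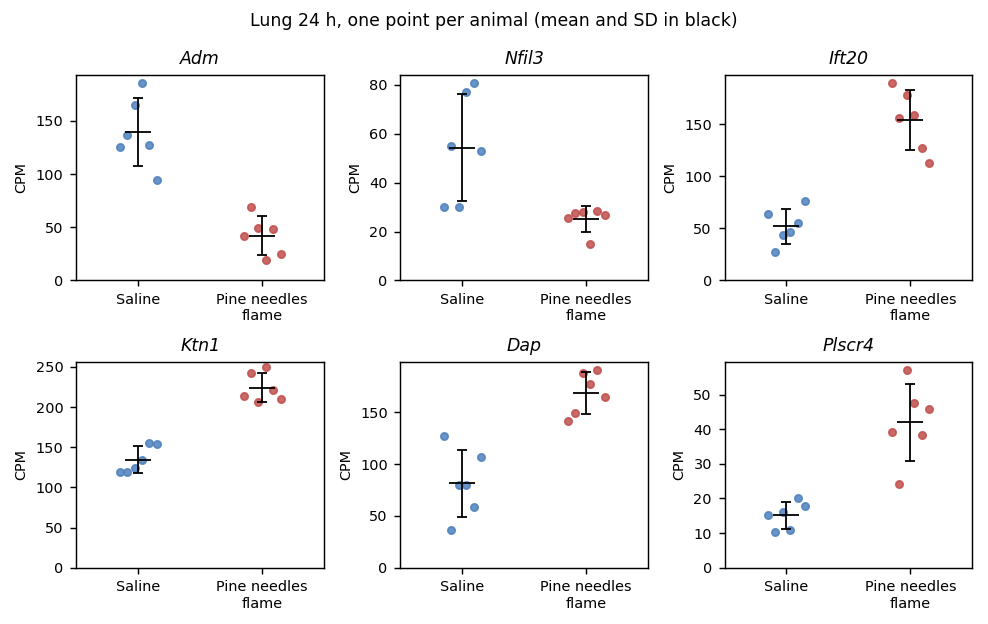
CPM of Adm, Nfil3, Ift20, Ktn1, Dap and Plscr4 in lung at 24 h, one point per animal, with the mean and SD in black. In each panel the 6 pine needles flame animals and the 6 saline animals do not overlap.

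A part of these differences was also seen against the other fuels. Against the mean of the flaming smokes of pine, red oak, peat and eucalyptus (20 libraries), 3 genes were called (0.0209% of genes tested). Among them were Ktn1, higher after pine needles by 0.71 ± 0.10 (adjusted p = 8.29e-06), and Plscr4, higher by 1.21 ± 0.21 (adjusted p = 0.000317). Each of the 6 pine needles animals had more Ktn1 (207 to 250 CPM) than every one of the 20 other flaming smoke animals, which ran from 105.97 to 176 CPM. For Plscr4, 5 of 6 were above all 20, whose highest value was 30.1 CPM. The share of all genes tested with either pattern was not counted, and both genes were chosen after their values were seen. Ift20 (0.80 ± 0.20, adjusted p = 0.159) and Dap (0.71 ± 0.16, adjusted p = 0.0627) were not called in this contrast.

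The comparison with wood of the same genus was made against pine flame, with 5 libraries. Only Ktn1 was called (0.00695% of genes tested), at 224 CPM after pine needles and 127.3 CPM after pine, a difference of 0.81 ± 0.14 (adjusted p = 0.00169). It was not called without pine flame replicate 3 (adjusted p = 0.0874), on plate 2 alone (adjusted p = 0.226), in a fit of the 2 groups alone (adjusted p = 0.123) or with every lung library kept (adjusted p = 0.885). Plscr4 differed by 0.91 ± 0.30 and was not called (adjusted p = 1). Smoldering pine needles gave wide ranges at 24 h, from 110.6 to 276 CPM for Ktn1 and from 19.2 to 50.2 CPM for Plscr4, which overlapped the flaming animals. The flaming and smoldering groups were not tested against each other.

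The 4 h animals are a separate set, and Ktn1, Plscr4, Ift20 and Dap had the same direction in them. Ift20 ran from 86.4 to 141.3 CPM after smoke and from 49.1 to 84.5 CPM after saline at 4 h, with no overlap. Its log2 change there was 0.62 and was not called (adjusted p = 0.172). Dap overlapped between the groups at 4 h and was not called either (0.17, adjusted p = 0.624). The contrasts at 4 h were added after the 24 h values were seen. At 4 h 46 genes were called between pine needles flame and saline (0.32% of genes tested), of which 34.8% were lower, against 48.3% lower with DESeq2's size factors and 57.6% with DESeq2. Ktn1 was at 211 ± 24.8 CPM after smoke and 144 ± 9.35 CPM after saline (SD, n = 6 each), with no overlap and a log2 change of 0.55 ± 0.14 (adjusted p = 0.0411). Plscr4 was at 35.8 ± 15.8 and 16.2 ± 3.75 CPM (SD, n = 6 each), with 5 of 6 smoke animals above all saline animals and a change of 1.14 ± 0.28 (adjusted p = 0.0411). Of all 4 h lung groups Ktn1 had its highest mean after pine needles flame, but Plscr4 had higher means after pine needles smolder (45.5 ± 13.6 CPM) and peat smolder (39.9 ± 8.21 CPM, SD, n = 6 each). Both calls were lost without the filter on low counts, with every lung library kept, with DESeq2's size factors and in a fit of the 2 groups alone. Against the mean of the other 4 flaming smokes at 4 h, 24 genes were called (0.167%), among them Ktn1 (0.65 ± 0.10, adjusted p = 3.49e-05). Plscr4 was not (0.82 ± 0.21, adjusted p = 0.0677). The pine needles flame libraries enter both the contrast with saline and that with the other smokes at each time, so these contrasts are not independent of each other.

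**Figure D4:**
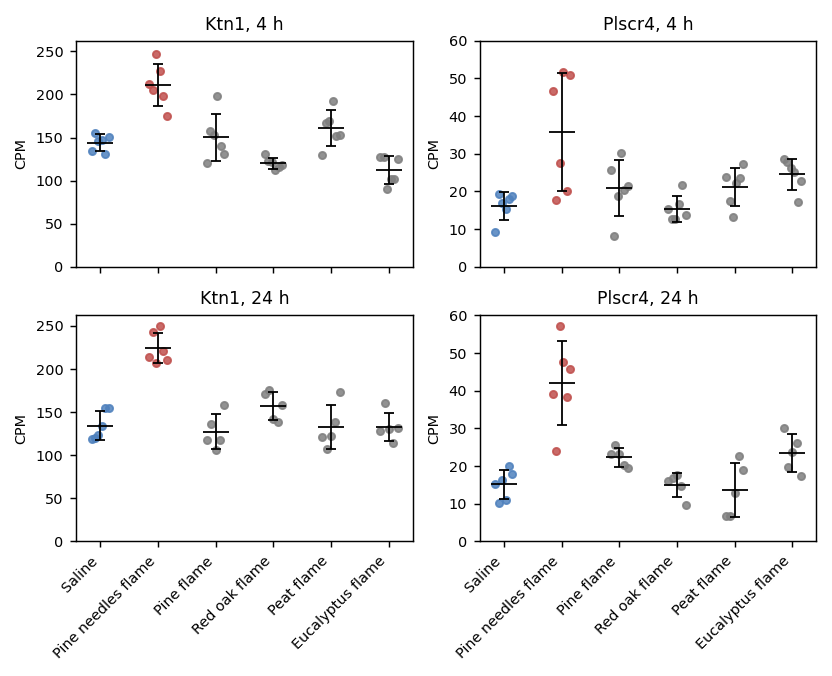
CPM of Ktn1 and Plscr4 at 4 h (top) and 24 h (bottom) in saline and in the 5 flaming smokes, one point per library, with the mean and SD in black. Pine needles flame (red) has the highest mean in all 4 panels, and at 24 h its animals lie above every other point for Ktn1.

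The effect at 24 h minus that at 4 h was called for 4582 genes (31.9%), 1987 higher (13.8%) and 2595 lower (18%), and for 82 when every lung library was kept. The saline libraries with few detected symbols enter this contrast too, and it was not refitted without any saline library. Ift20 (0.95 ± 0.36, adjusted p = 0.0383) and Dap (0.91 ± 0.29, adjusted p = 0.0167) had larger effects at 24 h. For Ktn1 (0.19 ± 0.19, adjusted p = 0.439) and Plscr4 (0.33 ± 0.40, adjusted p = 0.523) the difference between the times was not called.

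Among the 12 largest rises were the acute phase genes Saa3 and Lcn2, the neutrophil markers S100a8 and S100a9 and the cytokine Il1b, and none of the 12 was called without saline replicate 2. Lcn2, lipocalin 2, an iron-binding antibacterial protein of epithelium and neutrophils, was at 128.1, 11.8, 56.2, 41.4, 31.3 and 198 CPM after saline. After smoke it was at 526, 826, 1057, 547, 327 and 159 CPM. All but smoke replicate 6 were above all saline animals, and the log2 change was 2.89 ± 0.75 (adjusted p = 0.0324) with all libraries and 2.67 (adjusted p = 0.324) without saline replicate 2. Saa3, a serum amyloid A made locally in the lung, was at 3.08 to 130.96 CPM after smoke and 0 to 6.34 CPM after saline. Its log2 change was 4.09 ± 1.03 (adjusted p = 0.0324), and 4.00 (adjusted p = 0.239) without saline replicate 2. Of 16 tested acute phase genes, 4 rose and 0 fell, beside 1.4% of all genes that were higher, with a median of 0.68. Without saline replicate 2 the median was 0.57 and 0 of the 16 were called, and with the covariate 0 were called. Saa1, a second serum amyloid A, was among them at 3.41 ± 0.96 (adjusted p = 0.0324), and the serum amyloid genes are similar in sequence, so reads may be shared between them.

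Of 16 tested neutrophil markers, 2 rose and 0 fell, beside 1.4% of all genes that were higher. Their median was 1.02 against 0.016 over all genes. It was 0.89 without saline replicate 2, 0.63 without saline replicates 2, 4 and 5 and 0.58 with the covariate, and none was called in these fits. The pair was S100a8 and S100a9, the subunits of calprotectin. S100a8 was at 11.3, 4.61, 48.7, 4.57, 1.76 and 2.44 CPM after smoke and at 0 to 5.10 CPM after saline. Most of its mean came from smoke replicate 3, and only 2 smoke animals were above all saline animals, with a log2 change of 2.83 ± 0.88 (adjusted p = 0.0358). S100a9 followed the same libraries (2.72 ± 0.88, adjusted p = 0.0395, 39.8 CPM in smoke replicate 3). The neutrophil markers summed to 219 to 643 CPM after smoke and to 184 to 315 CPM after saline, which overlapped, and 1 marker, Elane, was at 0 in every library of both groups. Their part in the other rises was not tested. Il1b, the cytokine interleukin 1 beta, was at 7.95 ± 8.55 CPM after smoke and 1.39 ± 1.55 CPM after saline (2.57 ± 0.79, adjusted p = 0.0349). Marco, a scavenger receptor of alveolar macrophages that takes up particles, was at 3.90 ± 2.09 and 0.637 ± 0.722 CPM (2.53 ± 0.83, adjusted p = 0.0415). It was not called without saline replicate 2 (2.32, adjusted p = 0.326) or with the covariate. Marco was the only called member of 17 tested alveolar macrophage markers, beside 1.4% of all genes that were higher. The median of those 17 was 0.70, with 12 of them positive, and was 0.69 without saline replicate 2 and 0.25 with the covariate. Clca3a1, Sirpb1b, Sirpb1c, Aph1c, Ints6l, Dscr3 and Igkv8-21 completed the largest rises, from 1.87 to 3.0. Of these, Dscr3 (5.88 ± 1.06 against 1.55 ± 0.965 CPM), Sirpb1c and Igkv8-21 had no overlap between groups, and the Sirpb1 genes are near-identical copies of each other, so their counts are uncertain. Cxcl1, a neutrophil attractant, was not called (1.19 ± 0.56, adjusted p = 0.13). Nor was any of 13 tested monocyte chemokine genes, beside 1.4% of all genes that were higher. The median of those 13 was 0.91, with 11 of them positive. It was 0.68 without saline replicate 2, 0.50 with the covariate and 0.48 without saline replicates 2, 4 and 5.

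Transferrin receptor, Tfrc, which brings iron into cells, rose from 82.9 ± 41.7 to 207 ± 53.8 CPM (1.32 ± 0.37, adjusted p = 0.0324), and Birc5, survivin, a cell division gene, by 1.66 ± 0.56 (adjusted p = 0.0451). Both calls were lost without saline replicate 2, at 1.12 and 1.43 (adjusted p = 0.326 for both).

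Of 18 clock genes tested, 3 rose and 1 fell, beside 1.4% of all genes that were higher and 7.99% that were lower. Without saline replicate 2, 0 rose and 1 fell. Nr1d1, the clock repressor Rev-erb alpha, was at 25.7, 13.9, 16.4, 5.08, 0.624 and 3.71 CPM after saline and at 25.3 to 40.7 CPM after smoke. Saline replicate 1 reached the smoke range and the others lay below it, with a log2 change of 1.73 ± 0.46 (adjusted p = 0.0324) and of 1.87 (adjusted p = 0.208) without saline replicate 2. Per3, a period gene, rose by 1.25 ± 0.38 (adjusted p = 0.0349), and by 1.16 without saline replicate 2, where it was not called (adjusted p = 0.326). Nfil3, whose transcription Rev-erb alpha is known to repress, was the member that fell. The hour of tissue collection is not given in the labels, and animal numbers run in blocks by group, so its part in these values was not tested.

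Of the 1150 genes that were lower after smoke, 1043 (90.7%) had their highest saline level in saline replicate 2, against 29.1% of all genes tested. Of the 201 that were higher, 162 (80.6%) had their lowest saline level in the same library, against 40.9% of all genes tested. Hspa5, the chaperone BiP of the endoplasmic reticulum, was at 3995, 12466, 5924, 6413, 6483 and 3533 CPM after saline and at 2295 to 3482 CPM after smoke. The groups did not overlap, although the gap between saline replicate 6 and smoke replicate 5 was small, and the log2 change was -1.21 ± 0.33 (adjusted p = 0.0324) and -0.91 (adjusted p = 0.326) without saline replicate 2. It was among 5 of 15 tested heat shock chaperones that fell, with 0 that rose, beside 7.99% of all genes that were lower. The list median was -0.52, and -0.54 without saline replicate 2, when none was called. Hspd1, the mitochondrial chaperonin (-0.90 ± 0.22, adjusted p = 0.0312), and Hsph1, a cytosolic co-chaperone (-1.02 ± 0.33, adjusted p = 0.0395), were also in the list.

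Airway secretory genes were another such group. Of 14 tested club and secretory markers 3 fell and 0 rose, beside 7.99% of all genes that were lower, with a median of -0.64, or -0.60 without saline replicate 2 and -0.12 without saline replicates 2, 4 and 5. Muc5b, the main gel-forming mucin of the airways, was at 103.6, 143, 136.3, 121.7, 231 and 77 CPM after saline and at 54.7, 39.5, 36.8, 31.8, 90.2 and 13 CPM after smoke. Smoke replicate 5 reached the saline range, and the change was -1.63 ± 0.49 (adjusted p = 0.0343). Bpifb1 (-2.47 ± 0.74, adjusted p = 0.0343) and Scgb3a1 (-2.20 ± 0.68, adjusted p = 0.0358), both secreted airway proteins, had their highest level in saline replicate 2. None of the 3 was called without it. The secretory markers summed to 24753 to 32804 CPM after smoke and 23017 to 54392 CPM after saline.

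The largest falls were Kcng4, Pck1, Tmem221, Kcng2, Ctxn1, Mrln, Col4a4, Catsper2, March4, Nat14, Mycbpap and Neurl3, from -3.66 to -2.62. None of these was called without saline replicate 2. Kcng2, a modifier subunit of potassium channels, is given as an example. It was at 4.71, 194, 16.1, 30.1, 26.8 and 2.78 CPM after saline and 2.08 to 11.4 CPM after smoke, so saline replicate 2 held most of the sum and saline replicates 1 and 6 lay within the smoke range. Its change went from -3.27 ± 0.95 to -1.81 without saline replicate 2 and to -0.86 without saline replicates 2, 4 and 5. Pck1, a gluconeogenic enzyme that is also a marker of fat, was high in saline replicates 2 and 5 (98.6 and 105.3 CPM) and at 2.11 to 6.89 CPM after smoke, and the fat cell markers summed to 39.1 to 221 CPM after saline against 38 to 67.8 CPM after smoke. The part of fat in the tissue was not tested. Mrln, a small membrane peptide known from muscle, had no overlap, with 1.52 to 21.1 CPM after saline and 0.147 to 1.19 CPM after smoke (-3.18 ± 0.70, adjusted p = 0.0183).

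**Figure D5:**
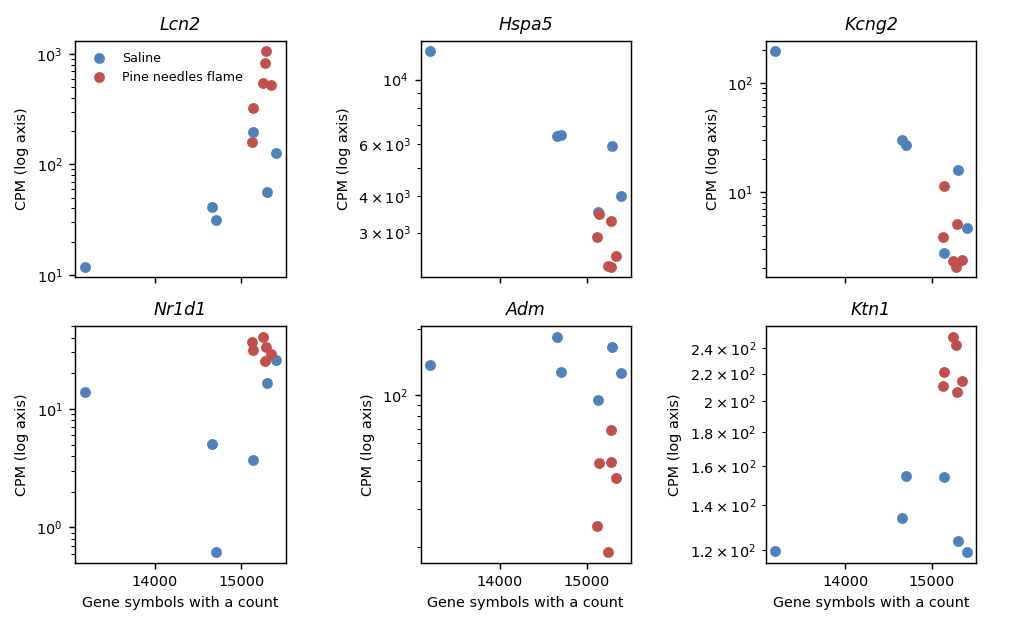
CPM (log axes) of Lcn2, Hspa5, Kcng2, Nr1d1, Adm and Ktn1 against the number of gene symbols with a count, one point per library of the 2 groups at 24 h. For Lcn2, Hspa5 and Kcng2 the saline library with 13196 symbols is the most extreme, whereas for Adm, Nr1d1 and Ktn1 it lies among the other saline libraries.

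Single vascular, alveolar and matrix genes fell after smoke. They included Ager (-1.96 ± 0.54, adjusted p = 0.0324), a receptor of alveolar type 1 cells, and Cldn5 (-1.12 ± 0.36, adjusted p = 0.0399), the endothelial tight junction claudin. Eln, elastin (-2.01 ± 0.56, adjusted p = 0.0324), and Col1a1, a chain of type I collagen (-1.61 ± 0.53, adjusted p = 0.0415), were called too. None of these was called without saline replicate 2, in which Ager reached 4393 CPM and Col1a1 10128 CPM. Alveolar type 1 markers had 3 of 14 tested members lower, and the collagen and matrix genes 2 of 23, beside 7.99% of all genes. The medians were of the other sign, 0.39 and 0.32. They were 0.25 and 0.20 without saline replicate 2, 0.17 and 0.05 with the covariate, and turned to -0.11 in both lists without saline replicates 2, 4 and 5. None of these members was called in those fits.

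The called members of the aryl hydrocarbon receptor, Nrf2 and hypoxia-inducible lists were all lower after smoke, as were 7.99% of all genes, and none was called without saline replicate 2. Of 9 tested aryl hydrocarbon receptor genes 0 rose, with a median of -0.02, and Arnt, the partner of the receptor, was the 1 member that fell (-0.58 ± 0.20, adjusted p = 0.0486). Cyp1a1, the enzyme most used as a readout of the receptor, was at 6.63 ± 3.19 CPM (SD, n = 6) after smoke and 8.87 ± 3.65 CPM (SD, n = 6) after saline (-0.42 ± 0.49, adjusted p = 0.545). Cyp1b1 was not called at -1.03 ± 0.44 (adjusted p = 0.0984). Nqo1, a quinone reductase under both pathways, was at 7.85 to 14 CPM after smoke and 0 to 7.95 CPM after saline, and just missed the threshold (1.09 ± 0.39, adjusted p = 0.0557). Of 25 tested Nrf2 antioxidant genes, 0 rose and 2 fell (Osgin1 and Txn1), with a median of -0.009. Hmox1, heme oxygenase 1 (0.47 ± 0.46), Txnrd1, thioredoxin reductase (-0.37 ± 0.20), and Mt2, a metallothionein (-0.12 ± 0.38), were not called, and Mt2 had 89.7 CPM in smoke replicate 3. Of 21 hypoxia-inducible genes 4 fell and 0 rose, with a median of -0.24, which was -0.10 without saline replicate 2 and -0.05 with the covariate. They included Slc2a1, a glucose transporter (-1.61 ± 0.51, adjusted p = 0.0361), Egln3, an oxygen-sensing hydroxylase (-1.89 ± 0.64, adjusted p = 0.0457), and Pdk1, a kinase that limits pyruvate oxidation (-0.62 ± 0.20, adjusted p = 0.0366).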

How the data were processed

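Whole-number read counts per probe were deposited by the authors for all 170 samples. Per the labels' protocols the assay was TempO-Seq, with a QuantSeq 3' kit also named. Bowtie and DESeq2 are named per the submitters' processing notes, without versions, and the genome build is not given in the sources used here. Rows were summed per symbol (30146 rows, 21450 symbols). Libraries with fewer than 13000 detected symbols were left out, which kept 134 lung libraries.

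All kept lung libraries entered 1 fit with group and plate terms in edgeR 4.0.16 (R 4.3.3, TMM factors, filterByExpr, trended dispersion, robust quasi-likelihood F test), tested on simulated data. Standard errors were taken as log2 change over root F. Benjamini-Hochberg adjustment covered 14385 genes, and a gene was called under 0.05. CPM use the TMM factors. The libraries of each group differed pairwise in at least 15015 symbols.

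Named are the 12 largest rises and 12 largest falls (called, group mean of 5 CPM or more in 1 group), up to 3 called members per list, 5 each way in other contrasts, and fixed genes. A few results are not reported here. Dap, Ift20, Ktn1 and Plscr4 were chosen after their values were seen. Adm and the 45 lists were chosen with earlier results of these data known. Promoters came from RefSeq (GRCm38.p6), and 5 of 5 genes matched. Alternatives were DESeq2 1.42.0, its size factors, single probes, no filter, no plate term, other sets of libraries, a covariate and leaving out each library. The fits without saline replicates 2, 4 and 5, and without saline replicate 2 plus the covariate, were added after seeing the data.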

Additional observations from a re-analysis of the deposited data

Results flagged for a closer look

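In the 24 h comparison, 30 of 170 group values tested held a library far from the other libraries of its group, measured as its gap to the nearest library over the range of the group. Chance flags about 1 in 20 groups where genes are chosen without regard to their values. Many of these genes were named because they were called, so that rate does not apply to them. The values of one library are not independent of each other.

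Saline replicate 2 was one of these by its number of detected symbols, 13196. It also stood far above the other saline libraries in the potassium channel subunit genes Kcng4 (42.2 CPM) and Kcng2 (194 CPM), and in Ctxn1 (42.2 CPM), Mrln (21.1 CPM), Nat14 (48.7 CPM), Neurl3 (94 CPM) and March4 (108.1 CPM). The same held for Col4a4 (548 CPM), Mycbpap (571 CPM), Tnfaip2 (1162 CPM) and the airway gene Scgb3a1 (865 CPM). Genes of vessels, matrix and alveoli were among them, with Ramp2 at 5413 CPM, Gja4 at 31.2 CPM, Col1a1 at 10128 CPM and Ager at 4393 CPM. Hspa5 reached 12466 CPM there, and the ribosomal protein genes Rps19 and Rps4x 11835 and 69.8 CPM.

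Smoke replicate 3 stood above the other smoke animals in the neutrophil genes S100a8 (48.7 CPM) and S100a9 (39.8 CPM) and in the cytokine gene Il1b (24.96 CPM). It was also high in Sirpb1b (20.2 CPM), Sirpb1c (65.2 CPM), Clca3a1 (41.4 CPM), the sulfotransferase gene Sult1a1 (245 CPM) and Mt2 (89.7 CPM). Its number of detected symbols, 15283, was within the range of its group. Single values were far from their group for Kcng2 in smoke replicate 5 (11.4 CPM), Egln3 in smoke replicate 1 (0.597 CPM) and Nfil3 in smoke replicate 4 (14.7 CPM).

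The effect of the smoke differed between the times in a test of that difference, given here as the log2 effect at 24 h minus that at 4 h. Among the genes described, it was -1.93 for Adm, 0.95 for Ift20 and 0.91 for Dap. The largest positive differences among called genes were 5.38 for Kdm6a, 4.38 for S100a8, 4.22 for Ccdc122, 4.18 for Zfp943 and 4.10 for Pkhd1l1. The largest negative ones were -6.81 for Gpc5, -4.60 for Mrln, -4.58 for Kcng2, -4.49 for Ctxn1 and -4.49 for Kcng4. Saline replicate 2 held outlying 24 h values of Mrln, Kcng2, Ctxn1 and Kcng4, and smoke replicate 3 one of S100a8. The time difference was not refitted without any saline library. For Gpc5 the 4 h saline mean was 0.254 CPM and the 4 h smoke mean 15.4 CPM, so the size of that difference rests on a level near 0. The same limit holds for Kdm6a, Ccdc122, Pkhd1l1, Mrln, Ctxn1 and Kcng4, whose lowest mean among the groups compared was 0.667 CPM (Mrln) to 0.956 CPM (Ctxn1).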

How the results depend on the processing

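The number of genes called against saline, 1351, was 509 without the filter on low counts, 7 with detected symbols as a covariate, 11 with the covariate and without saline replicate 2, 6 in 24 h lung alone, 4 on plate 2 alone, 1 with every lung library kept, 0 in the 2 groups alone (3795 at an unadjusted p under 0.05) and 0 without saline replicates 2, 4 and 5. It was 1845 with DESeq2, 1194 with its size factors and 1430 without the plate term. Leaving out 1 library gave 5 (without smoke replicate 4) to 3826 (without saline replicate 6). The time difference, 4582 genes, was 82 with every lung library kept. Against pine flame, 1 gene was called, and this became 3 with DESeq2, 2 without the plate term, 2 with the covariate, 0 with every library kept, 0 in the 2 groups alone (edgeR in each), 0 on plate 2 alone, and 0 to 2 when leaving out 1 library. Against the other flaming smokes, 3 genes were called, and this became 5 with DESeq2, 5 for single probes, 6 with the covariate, 2033 with every library kept and 3 to 5 when leaving out 1 library. At 4 h the 46 genes ranged from 0 in the 2 groups alone to 2272 with the covariate, and the 24 against the other smokes from 5 to 47. Adm kept its direction in every fit. It was not called in the 2 groups alone (-1.74), without smoke replicate 4 (-1.58) or without saline replicates 2, 4 and 5 (-1.60). The change of Adm ran from -1.94 to -1.58 when leaving out 1 library. Ramp3 was 0.062 with the covariate, 0.073 with the covariate and without saline replicate 2, and -0.37 to 0.15 when leaving out 1 library. Mt2 was 0.16 with the covariate, 0.22 with the covariate and without saline replicate 2, 0.46 without saline replicates 2, 4 and 5, and -0.74 to 0.12 when leaving out 1 library. Dap at 4 h against the other flaming smokes was 0.12 with the covariate (main value -0.11). The cause of these changes was not tested. No paired analysis was possible because the animals of the groups carry different numbers and the replicate numbers only follow the order of the samples.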

Other observations

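Of the 45 gene lists, 16 had no called member in the comparison with saline. They included the immediate early, monocyte chemokine, interferon-stimulated and complement genes and the B cell and T cell markers. In some of the others, single members went in opposite directions. Among 13 tested glucocorticoid-responsive genes Sult1a1 was higher after smoke (1.24 ± 0.41), and Tsc22d3 (-1.41 ± 0.44) and Klf9 (-1.0 ± 0.32) lower. Among 16 tested NF-kB feedback genes Nfkbiz was higher (0.77 ± 0.25) and Tnfaip2 lower (-1.53 ± 0.44). Lower too were the zinc exporter Slc30a1 (-1.42 ± 0.44), the stress kinase-like gene Trib3 (-1.64 ± 0.50), the cell cycle inhibitor Cdkn1a (-1.29 ± 0.34) and Apln, the vascular peptide apelin (-0.94 ± 0.27). In their lists, 4 of 6 tested metallothionein and zinc genes were positive (median 0.36), and 11 of 15 p53 target genes (median 0.12). Positive were also 8 of 16 ATF4 and unfolded protein genes (median -0.15) and 9 of 20 capillary and general endothelial markers (median -0.28). The respiratory chain genes had 4 of 17 tested lower and the ribosomal protein genes 2 of 19, beside 7.99% of all genes. Their medians were -0.05 and 0.25, and -0.13 and 0.14 without saline replicate 2, when none of them was called. None of the genes named here was called without saline replicate 2.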
